A study of Mus musculus with 6 samples.

Results

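The integrin genes of leukocytes and glia were examined in frontal cortex of GFAP-IL6 and wild-type (WT) mice. The members were the rows of the deposited count table whose symbol was Itgam, Itgax, Itgal, Itgb2 or Itga4, here called the leukocyte members, or Itgb1, Itgav, Itgb5, Itga6 or Itgb8, here called the widely expressed members. Each symbol matched 1 row, which gave 10 genes of the 33000 in the table. RNA was sequenced with the standard Illumina TruSeq mRNA protocol from 3 WT C57BL/6 mice and 3 mice homozygous for GFAP-IL6, also labelled C57BL/6, and all 6 mice were 3 months old. The GFAP-IL6 transgene places the inflammatory cytokine IL6 under the promoter of Gfap, so that astrocytes are its source, and the counts of Il6 and Gfap do not separate the transgene from the endogenous genes. Other treatments or alleles are not named in the labels.

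Libraries held 11.6 to 16.9 M counts in WT and 7.56 to 11.1 M in GFAP-IL6, so that depth did not overlap between the groups (exact permutation test, two-sided, p = 0.1, which is the minimum for 3 against 3). Counts of Il6 were at most 2 in WT libraries and at least 10 in GFAP-IL6 libraries, in the direction of the labels. Nothing in the labels says whether mice shared a litter, and p-values measure the spread between these 6 samples. Over the 6 neuron markers examined, the summed level was 10074 to 11257 CPM in WT and 9829 to 10874 CPM in GFAP-IL6, so neuronal RNA was abundant in each library. CPM is the count per 1 M counts of the library, here after TMM scaling by edgeR.

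Integrins are adhesion receptors built from an alpha and a beta subunit, and the pair decides which ligand is bound. Itgb2 encodes CD18, the beta subunit found on leukocytes, which pairs with the products of Itgam (CD11b), Itgax (CD11c) and Itgal (CD11a). In the brain, microglia carry CD11b with CD18 as a receptor for complement fragments, and CD11c appears on dendritic cells and on microglia in development and disease. Itgb1 encodes the most widely shared beta subunit, whereas Itgav pairs with several beta subunits, among them those of Itgb5 and Itgb8.

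The 3 members with related alpha subunits lie on chromosome 7 (GRCm38, plus strand, GENCODE M21). Itgal lies at chr7:127296260-127335138. Itgam, at chr7:128062640-128118491, ends 11055 bases before the start of Itgax, at chr7:128129547-128150657. Itgb2 lies at chr10:77530252-77565708 and Itgb1 at chr8:128685654-128733200, both on the plus strand. Chromosome 2 holds Itga6 at chr2:71745616-71858416, Itga4 at chr2:79255426-79333123 and Itgav at chr2:83724397-83806916, each on the plus strand. Itgb5 lies on the plus strand at chr16:33829665-33949338, and Itgb8 on the minus strand at chr12:119158022-119238802. All 10 are protein-coding genes, and the count of a member sums reads over its exons. In M21 the exons of Itgam share 3450 bases, 68.7% of the exon bases of Itgam, with Gm49368 on the same strand, and Gm49368 was not analysed here. The counts were made with an earlier release, GENCODE vM6, for which this overlap was not examined. Of the exon bases of Itga4, 8.04% overlap Cerkl on the opposite strand, and 5.9% of those of Itgav overlap the opposite-strand transcript Gm13684. The methods do not state whether counting used strand. Cerkl had between 17 and 48 counts per library, against 127 to 269 for Itga4.

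Promoter sequences of 7 members (Itgam, Itgax, Itga4, Itgav, Itgb1, Itgb5 and Itgb8), from 250 bases before to 50 bases after the transcript start, were read from RefSeq (GRCm38.p6). Sequences of Itgal, Itgb2 and Itga6 were not used. PU.1, encoded by Spi1, is the transcription factor that specifies myeloid cells, and GAGGAA is the core of the sites it binds. The letters GAGGAA, on either strand, occurred in 28.3% of the 32851 promoters of the table and in 3 of the 7 of members, those of Itgam, Itgav and Itgb1. The windows below, of 30 bases each, are shown because they place the matches of Itgam, the leukocyte member with the smallest p, beside those of widely expressed members whose level did not pass the test. Capitals mark the match, which reads TTCCTC where it is on the opposite strand. The Itgam windows lie at chr7:128062544-128062573 and chr7:128062613-128062642, that of Itgav at chr2:83724378-83724407 and that of Itgb1 at chr8:128685633-128685662, all read on the plus strand.
Itgam, distal match: tgttttctcccgGAGGAAggctacagaggg
Itgam, proximal match: tctcatagctttTTCCTCatacttctctgt
Itgav, proximal match: cgtgagcgcgacTTCCTCtttcggcggggc
Itgb1, proximal match: tgacgcggcgcgGAGGAAtgcgtttccgga

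The matches start at position -84 and -15 from the transcript start in Itgam, at -7 in Itgav and at -9 in Itgb1. Itgam held a further match from position 33 to 38, after the start, and Itgav another from -218 to -213. No match was found in the windows of Itgax, Itga4, Itgb5 and Itgb8. Thus GAGGAA occurred in 1 of the 3 members with a sequence that rose (Itgam, but neither Itgax nor Itgb5) and in 2 of the 4 that did not pass the test. The STAT motif TTCNNNGAA, on which factors downstream of IL6 receptors act, occurred in 8.3% of all promoters and in 0 of the 7, and the TATA box TATAAA in 13.6% of all and 0 of the 7. The GC box GGGCGG occurred in 35.7% of all promoters, with 5 of the 7 members holding it (Itga4, Itgav, Itgam, Itgb1 and Itgb5). Over the 14126 promoters of genes tested for expression, as all 7 members were, the shares were 26.5% for GAGGAA, 6.8% for TTCNNNGAA, 7.33% for TATAAA and 59.9% for GGGCGG, so that the members' counts were read against these. GGGCGG and GAGGAA matches did not overlap in any of these promoters. A match is a run of letters and was not tested for binding.

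Differential expression between GFAP-IL6 and WT was tested for every gene with edgeR. Of the 10 members, 5 were higher in GFAP-IL6 at an adjusted p under 0.05, 0 were lower, 4 did not pass the test, and Itgal had too few counts to be tested. The same criterion called 2.86% of the 15341 genes tested, 2.65% as higher and 0.209% as lower. The count of 0 lower members was also 0 at an unadjusted p under 0.05, which 9.37% of all genes reached in that direction, and 0 with DESeq2 and limma-voom. Itgam, Itgax and Itgb2 rose among the leukocyte members, and Itgb5 and Itga6 among the widely expressed members. The first 3 were also differentially expressed genes (DEGs), with an absolute log2 fold change over 1, as were 1.36% of all genes tested in the higher direction and 0.013% in the lower. In 5 members every GFAP-IL6 library was above every WT library, which held for 13.8% of all genes tested (12.7% in the other direction). Itgax passed the low-count filter through its GFAP-IL6 libraries alone, so that it had to be higher once tested, and it adds no support to the count. Without Itgax, 4 of 8 members tested rose. In bulk tissue, more cells of a type and more RNA per cell cannot be told apart.

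**Figure D1:**
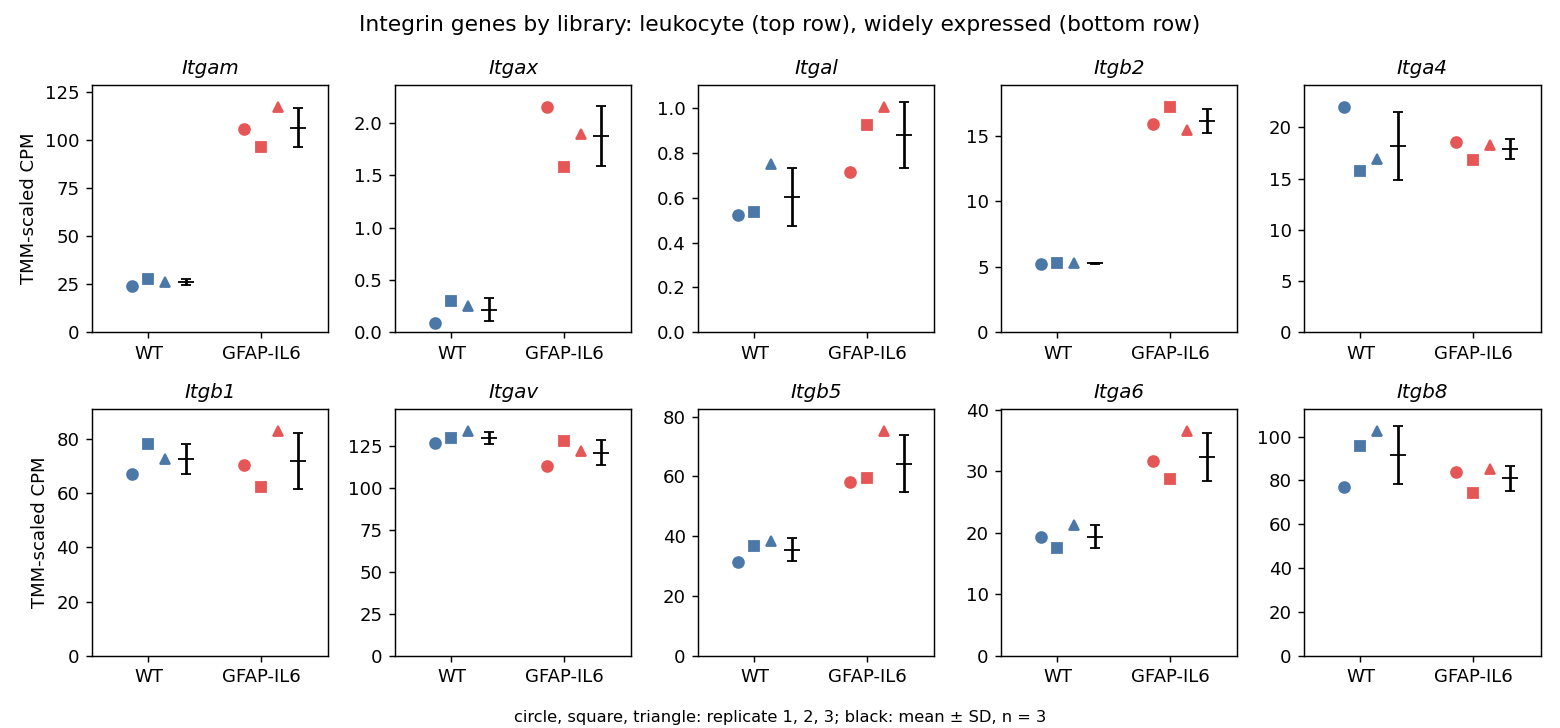
TMM-scaled CPM (vertical axes, each from 0) of the 10 integrin genes in WT and GFAP-IL6 libraries, with circle, square and triangle for replicates 1, 2 and 3 and the mean ± SD in black (n = 3). Itgam, Itgax and Itgb2 of the upper row and Itgb5 and Itga6 of the lower row have every GFAP-IL6 library above every WT library, and the groups overlap in the other 5 genes.

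Itgam, the alpha subunit CD11b, was examined first among the leukocyte members. Its level was 24.2, 27.8 and 26.3 CPM in WT replicates 1, 2 and 3 and 106, 96.8 and 117 CPM in GFAP-IL6 replicates 1, 2 and 3. The lowest GFAP-IL6 library was thus far above the highest WT library, and the groups did not overlap. Itgam rose 4.07-fold, or 2.03 ± 0.10 log2 units (SE; adjusted p of 3.01e-07 by edgeR), and ranked 2 by p among all genes tested.

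Itgb2, the beta subunit CD18 with which CD11b, CD11c and CD11a all pair, had 5.23, 5.25 and 5.27 CPM in WT and 15.9, 17.2 and 15.4 CPM in GFAP-IL6. The WT values were nearly equal, with an SD of 0.0238 CPM (n = 3), less than the counting error of 60 to 88 counts, and each GFAP-IL6 library was above them. Itgb2 rose 3.07-fold, or 1.62 ± 0.13 log2 units (SE; adjusted p of 1.5e-05 by edgeR).

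Itgax, the alpha subunit CD11c, was the least abundant member per length in WT, where its counts were 1, 5 and 4, against 24, 12 and 17 in the GFAP-IL6 replicates. In CPM these were 0.0871, 0.298 and 0.251 in WT and 2.15, 1.58 and 1.9 in GFAP-IL6. The groups did not overlap, although GFAP-IL6 libraries were the shallower ones. The estimate for Itgax was 3.02 ± 0.41 log2 units (SE), with a 95% interval from 2.13 to 3.91 and an adjusted p of 0.00101 by edgeR. This estimate rests on 10 WT counts in all, and 0 of 3 WT libraries reached the 0.882 CPM at which the filter accepts a gene.

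Itgal, the alpha subunit CD11a that is best known from lymphocytes, was counted 6, 9 and 12 times in WT and 8, 7 and 9 times in GFAP-IL6. Its level was 0.604 ± 0.129 CPM in WT and 0.882 ± 0.148 CPM in GFAP-IL6 (SD, n = 3 each). WT replicate 3, at 0.753 CPM, was above GFAP-IL6 replicate 1, at 0.717 CPM, so the groups overlapped. The difference had an exact two-sided permutation p of 0.2, and a change of Itgal was not detectable at this depth. Itgal did not pass the low-count filter and has no edgeR value in the main test.

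Itga4 encodes the alpha subunit that pairs with the product of Itgb1 and binds Vcam1 and fibronectin, and it guides lymphocytes and monocytes across vessel walls. Its level was 21.9, 15.7 and 16.9 CPM in WT and 18.6, 16.8 and 18.3 CPM in GFAP-IL6. WT replicate 1 was the highest and WT replicate 2 the lowest of the 6 libraries, so that the GFAP-IL6 values lay inside the WT range. Itga4 had a log2 fold change of -0.01 ± 0.13 (SE), with a 95% interval from -0.30 to 0.28 and an adjusted p of 0.971 by edgeR. Its sign was positive without WT replicate 1, at 0.14, without GFAP-IL6 replicate 2, at 0.03, and with limma-voom, at 0.02.

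**Figure D2:**
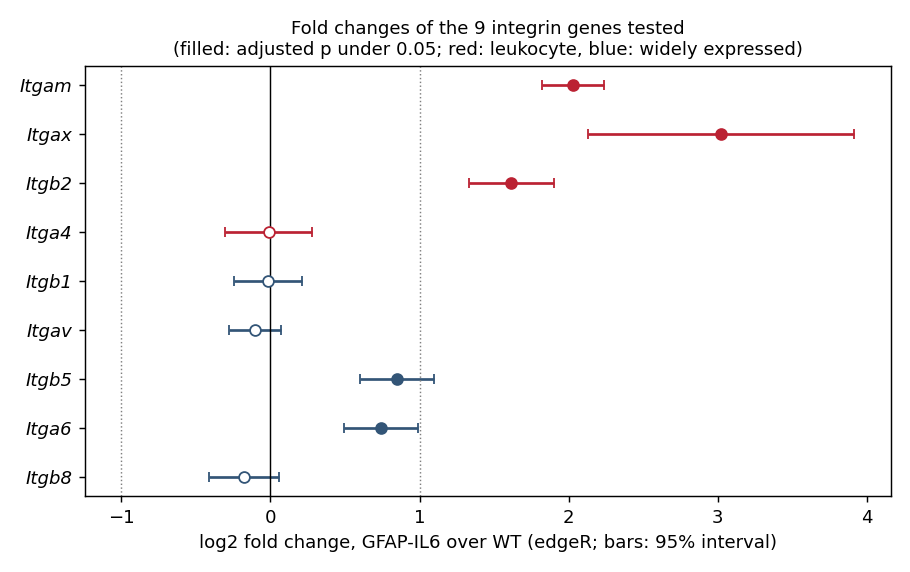
Log2 fold change of GFAP-IL6 over WT by edgeR (horizontal axis) for the 9 integrin genes tested, with 95% intervals as bars, leukocyte members in red, widely expressed members in blue and filled points at an adjusted p under 0.05. Itgam, Itgax and Itgb2 lie beyond 1 (dotted line), Itgb5 and Itga6 lie between 0.5 and 1, and the intervals of Itga4, Itgb1, Itgav and Itgb8 include 0.

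Among the widely expressed members, 2 of 5 rose, and the median log2 fold change of the 5 was -0.02. Over all genes tested the median was -0.0038. Estimates of the other 3 lay between -0.18 and -0.02. Itgb5, a beta subunit that forms a vitronectin receptor with the product of Itgav, had 31.3, 36.7 and 38.5 CPM in WT and 58.2, 59.6 and 75.1 CPM in GFAP-IL6. The groups were apart, and GFAP-IL6 replicate 3 stood above the other 2. Itgb5 rose 1.8-fold, or 0.85 ± 0.11 log2 units (SE; adjusted p of 0.000925 by edgeR).

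Itga6 encodes a laminin receptor subunit that pairs with the products of Itgb1 or Itgb4 and is found on endothelial cells. It had 19.2, 17.6 and 21.3 CPM in WT and 31.6, 28.8 and 36.5 CPM in GFAP-IL6. The groups did not overlap, and Itga6 rose 1.67-fold, or 0.74 ± 0.11 log2 units (SE; adjusted p of 0.00271 by edgeR). Across the fits that left out 1 library each, the adjusted p by edgeR was at most 0.0313 for Itga6 and 0.00798 for Itgb5.

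The other 3 widely expressed members did not pass the test. Itgb1 had 67.1, 78.2 and 72.3 CPM in WT and 70.3, 62.2 and 82.7 CPM in GFAP-IL6, the latter spanning the WT values. The estimate for Itgb1 was -0.02 ± 0.11 log2 units (SE), with a 95% interval from -0.25 to 0.21 and an adjusted p of 0.948 by edgeR. The sign of Itgb1 was positive without WT replicate 2, GFAP-IL6 replicate 1 or GFAP-IL6 replicate 2, at 0.04, 0.00046 and 0.07.

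Itgav, the alpha subunit shared by receptors for vitronectin and latent TGF-beta, had 126, 129 and 134 CPM in WT and 113, 128 and 122 CPM in GFAP-IL6. GFAP-IL6 replicate 2 lay among the WT values and the other GFAP-IL6 libraries below them. The estimate was -0.10 ± 0.08 (SE) in log2, with an adjusted p of 0.481 by edgeR. Itgb8, whose product with that of Itgav activates latent TGF-beta, had 76.9, 95.7 and 102 CPM in WT and 83.6, 74.5 and 85.1 CPM in GFAP-IL6. WT replicate 1 lay within the GFAP-IL6 range, and the other WT libraries lay above it. For Itgb8 the estimate was -0.18 ± 0.11 (SE) in log2, with a 95% interval from -0.41 to 0.06 and an adjusted p of 0.364 by edgeR. The intervals of Itgav and Itgb8 leave out a fall to 1 or more log2 units below WT, and their p values do not show equal levels.

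To set levels of different genes side by side, TPM was computed, in which counts are divided by gene length and scaled to a constant sum. On this scale the median gene tested was 0.0669 log2 units higher in GFAP-IL6, so that TPM is used for order and ratios and not for the changes given above. In WT the order from high to low was Itgb1 (52.7 ± 2.5 TPM), Itgav (51.1 ± 1.64), Itgb5 (31.8 ± 2.89), Itgb8 (30.2 ± 3.9), Itga6 (12.3 ± 1.37), Itgam (11.4 ± 0.46), Itga4 (5.19 ± 1.09), Itgb2 (4.91 ± 0.135), Itgal (0.263 ± 0.0568) and Itgax (0.144 ± 0.0728), each with SD and n = 3. Neighbours whose libraries overlapped were Itgb1 and Itgav, Itgb5 and Itgb8, Itga6 and Itgam, and Itga4 and Itgb2. In GFAP-IL6, Itgb5 (60.5 ± 8.62 TPM), Itgb1 (54.8 ± 7.91), Itgav (49.9 ± 2.63) and Itgam (48.8 ± 4.74) came first (SD, n = 3 each), and each overlapped the next. Itgb8, Itga6, Itgb2, Itga4, Itgax and Itgal followed in this order without overlap between neighbours.

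Itgam thus moved from the sixth to the fourth place, and Itgax passed Itgal. These places depend on the deposited gene lengths, which differ from the exon bases of M21. They were 6364 against 5024 bases for Itgam and 4361 against 9025 for Itga6, and the order with other lengths was not examined. Itgam took 5.5% to 5.9% of the summed TPM of the 10 members in WT libraries and 16.5% to 17.5% in GFAP-IL6 libraries. The share of Itgb2 was 2.36% to 2.62% in WT and 4.81% to 6.26% in GFAP-IL6. As shares of a fixed sum, those of Itgb1 (26.4% and 19.1% on average), Itgav (25.5% and 17.5%) and Itgb8 (15.1% and 9.82%) were lower in GFAP-IL6 while their own levels did not pass the test.

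Subunits that pair were then compared within each library, since a ratio within a library does not depend on its depth or scaling. A set of 11 log2 ratios was tested, for which the smallest exact permutation p of 0.1 became 0.138 after Benjamini-Hochberg adjustment, so that no ratio could pass 0.05. The ratio of Itgam to Itgb2 in TPM was 2.16, 2.47 and 2.33 in WT and 3.11, 2.63 and 3.55 in GFAP-IL6. The groups did not overlap, and GFAP-IL6 was higher by 0.41 log2 units on average (exact permutation p of 0.1, adjusted 0.138). The difference between Itgam and its partner subunit did not pass the adjusted threshold, and its direction was shared by all 3 GFAP-IL6 libraries.

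The ratio of Itgax to Itgb2 was 0.0122, 0.0417 and 0.035 in WT and 0.0996, 0.0678 and 0.0905 in GFAP-IL6, higher in each GFAP-IL6 library, and the difference of 1.70 log2 units was 1.15 without WT replicate 1, which has a single Itgax count. Itgal went the other way relative to Itgb2, with ratios of 0.0466, 0.0476 and 0.0665 in WT and 0.021, 0.0251 and 0.0304 in GFAP-IL6, lower in each GFAP-IL6 library by 1.07 log2 units. Both ratios had an exact permutation p of 0.1, adjusted 0.138. The ratio of Itgal rests on 6 to 12 Itgal counts per library. Itgal itself was not lower, at 0.604 CPM in WT and 0.882 CPM in GFAP-IL6, while Itgb2 rose 3.07-fold.

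Among the widely expressed pairs, the ratio of Itgb5 to Itgav was 0.563, 0.647 and 0.657 in WT and 1.17, 1.06 and 1.4 in GFAP-IL6. Itgb5 transcripts were thus fewer than those of Itgav per length in each WT library and more numerous in each GFAP-IL6 library (difference of 0.96 log2 units, exact permutation p of 0.1, adjusted 0.138). The crossing depends on the deposited gene lengths. Counts of Itgb5 were below those of Itgav in each library, at 649, 451 and 673 against 1259, 967 and 1093 in GFAP-IL6 replicates 1, 2 and 3. Itgb8, the alternative partner of Itgav, had ratios to it of 0.511, 0.621 and 0.644 in WT and 0.622, 0.49 and 0.585 in GFAP-IL6, which overlapped (exact permutation p of 0.6, adjusted 0.733). The ratio of Itga6 to Itgb1 was 0.251, 0.197 and 0.257 in WT and 0.394, 0.405 and 0.386 in GFAP-IL6, higher in each GFAP-IL6 library by 0.76 log2 units (exact permutation p of 0.1, adjusted 0.138). That of Itga4 to Itgb1 overlapped, with a difference of 0.01 log2 units and an exact permutation p of 1.

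**Figure D3:**
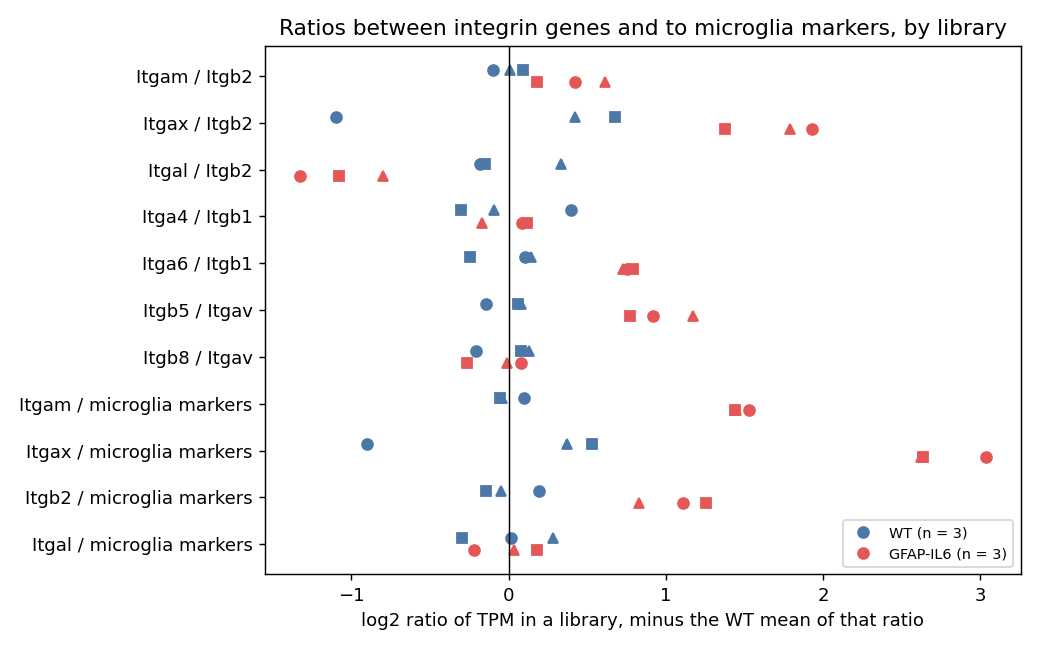
Log2 ratio of TPM within each library, minus its WT mean (horizontal axis), for the 7 ratios between integrin genes and the 4 ratios to the summed TPM of 9 microglia markers, with WT in blue, GFAP-IL6 in red and circle, square and triangle for replicates 1, 2 and 3. The groups overlap for Itga4 to Itgb1, Itgb8 to Itgav and Itgal to microglia markers, and Itgal to Itgb2 is the ratio that was lower in every GFAP-IL6 library.

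Since microglia carry CD11b and CD18, the members were set beside the 9 microglia markers Tmem119, P2ry12, Sall1, Cx3cr1, Siglech, Olfml3, Gpr34, Fcrls and Csf1r. Over all genes tested, 2.65% rose and 0.209% fell at an adjusted p under 0.05 by edgeR. Of the 9 markers, 5 rose and 0 fell (4 rose without GFAP-IL6 replicate 3, where Fcrls was at 0.0615), with a median log2 fold change of 0.63. Their summed level was 299.9 to 364 CPM in WT and 488 to 581 CPM in GFAP-IL6, a ratio of means of 1.55. Csf1r and Cx3cr1, the most abundant, had log2 fold changes of 0.87 and 0.63, and Olfml3 had the largest of the list, 1.27, still below the values of Itgam and Itgb2. P2ry12 and Gpr34, receptors of the resting state of microglia, were at -0.27 and -0.22 and did not pass the test (adjusted p by edgeR of 0.291 and 0.54).

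Relative to the summed TPM of these markers in the same library, Itgam was higher in each GFAP-IL6 library, by 1.47 log2 units or 2.78-fold. Itgb2 was higher by 1.07 log2 units and Itgax by 2.76, again in each GFAP-IL6 library (exact permutation p of 0.1 for each, adjusted 0.138). The ratio of Itgal to the markers overlapped between groups, with a difference of -0.0018 log2 units and an exact permutation p of 1. Itgam and Itgb2 thus stood higher against the summed microglia markers in 3 of 3 GFAP-IL6 libraries, with p-values at the limit of the design, and the ratio of Itgax rests on its few WT counts.

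Markers of other leukocytes were set beside the same members. Of 8 neutrophil markers, S100a8, S100a9, Ly6g, Retnlg, Mpo, Camp and Ngp had at most 4 counts in any library, whereas Csf3r, a cytokine receptor gene on that list, rose with a log2 fold change of 1.85 (adjusted p of 1.61e-05 by edgeR). The summed level of the list was 5.31 to 7.66 CPM in WT and 21.1 to 25.3 CPM in GFAP-IL6, nearly all of it Csf3r. Of 5 monocyte markers, Ly6c2, Plac8 and Chil3 had at most 2 counts in any library. Ccr2, a chemokine receptor of monocytes, was too low to be tested. It had 0.444 ± 0.246 CPM in WT and 1.12 ± 0.412 CPM in GFAP-IL6 (SD, n = 3 each). The groups nearly touched, at 0.656 CPM in WT replicate 2 and 0.66 CPM in GFAP-IL6 replicate 2. Counts of Ccr2 overlapped, at 2, 11 and 8 in WT and 14, 5 and 13 in GFAP-IL6. Over all genes tested, 13.8% had every GFAP-IL6 library above every WT library in CPM. The summed level of the monocyte list was 23.1 to 28.7 CPM in WT and 26.7 to 29.7 CPM in GFAP-IL6. Nearly all of it was Vcan, so the sum says little about Ccr2, Ly6c2, Plac8 and Chil3. Of 8 T cell markers, Cd3d was at 0 in every library, Cd3g at most at 1 count, and Cd3e at 0 in WT and at 1 to 3 counts in GFAP-IL6. Cd8a had 0 to 1 counts in WT and 1 to 3 in GFAP-IL6. WT replicate 1 and GFAP-IL6 replicate 2 each had 1 Cd8a count. Their CPM of 0.0871 and 0.132 differed only through the scaling to library depth. Cd4 and Lck were tested and did not pass. Cd4 had 1.64 ± 0.927 CPM in WT and 1.19 ± 0.64 in GFAP-IL6, and Lck, which passed the filter through its GFAP-IL6 libraries alone, 0.71 ± 0.0661 and 1.13 ± 0.0571 without overlap (SD, n = 3 each; log2 fold change 0.66, adjusted p of 0.279 by edgeR). The T cell list had a sum of 1.83 to 3.4 CPM in WT and 2.46 to 3.43 CPM in GFAP-IL6. The 4 B cell markers had at most 5 counts and the 4 NK cell markers at most 3, with sums of 0.314 to 0.537 and 0 to 0.0596 CPM in WT and 0.396 to 1.005 and 0.179 to 0.67 CPM in GFAP-IL6. Of 8 border macrophage markers 5 were tested and 0 passed (22.98 to 27.4 CPM in WT and 27.2 to 36.3 CPM in GFAP-IL6), with 1 gene, Stab1, higher at an unadjusted p under 0.05. That level was reached by 11.1% of all genes tested in the higher direction. Of 5 dendritic cell markers 2 were tested and 0 passed, Xcr1 and Clec9a had at most 2 counts, Flt3 and Zbtb46 made up most of the level, and the sum was 24.1 to 27.7 CPM in WT and 27.2 to 29.8 CPM in GFAP-IL6. DESeq2 and limma-voom also called 0 markers of the border macrophage, monocyte, T cell, B cell, NK cell and dendritic cell lists. By edgeR, 0 of 4 B cell, 0 of 4 NK cell and 1 of 5 monocyte markers had enough counts to be tested. The filter was the same for limma-voom, so its 0 for the B cell and NK cell lists was fixed in advance and does not show unchanged levels. The part of these cells in the rise of the leukocyte members was not tested.

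Markers of the other cell types of cortex were set beside Itgb5, Itga6 and the members that did not pass the test. The share of all genes tested that rose at an adjusted p under 0.05 by edgeR was 2.65%. Of 8 endothelial markers 4 rose (Cldn5, Pecam1, Flt1 and Slco1a4), with a median log2 fold change of 0.54 and a summed level of 178 to 200.02 CPM in WT and 272 to 310 CPM in GFAP-IL6. Without any 1 of the GFAP-IL6 libraries, Pecam1 (adjusted p of 0.0551 to 0.214 by edgeR) and Slco1a4 (0.0502 to 0.0686) did not pass, which left 2. Of 4 pericyte markers 1 rose, Rgs5, which did not pass without WT replicate 3 or any 1 of the GFAP-IL6 libraries (0.0542 to 0.18 by edgeR), with sums of 139 to 152 CPM in WT and 182 to 212 CPM in GFAP-IL6. The 6 astrocyte markers (1778 to 2200 CPM in WT, 1837 to 2189 CPM in GFAP-IL6), 6 oligodendrocyte markers (3225 to 5940 and 3246 to 5068 CPM), 2 markers of their precursors (67.2 to 75.8 and 75.5 to 89.6 CPM) and 6 neuron markers held 0 genes past the test by edgeR. At an unadjusted p under 0.05, 1 astrocyte marker was higher and 1 lower, 1 precursor marker was higher, 2 neuron markers were lower and 0 oligodendrocyte markers differed. That level was reached by 11.1% of all genes tested in the higher and 9.37% in the lower direction. DESeq2 called 1 astrocyte marker, Aqp4, as higher and 0 genes of the oligodendrocyte, precursor and neuron lists, and limma-voom called 0 of all 4 lists. At the same unadjusted level 7 of the 8 endothelial, 3 of the 4 pericyte and 7 of the 9 microglia markers were higher and 0 were lower. The 8 endothelial markers had log2 fold changes from 0.18 (Kdr) to 0.93 (Cldn5), beside 0.74 for Itga6 and 0.85 for Itgb5. Those of the 9 microglia markers ran from -0.27 (P2ry12) to 1.27 (Olfml3), with a median of 0.63. The part of endothelial or microglial RNA in the rise of Itga6 and Itgb5 was not tested.

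The genes whose pattern over the 6 libraries was closest to a member were found by the root mean square distance between centred log2 CPM, among 10359 genes with a mean of at least 10 CPM. For Itgam they were Il1r1, the signalling receptor of interleukin 1 (distance 0.098), Lyz2, a lysozyme of macrophages and microglia (0.102), and Lag3, an immune checkpoint gene (0.136). For Itgb2 they were C1qb (0.134) and C1qa (0.159), which encode parts of the complement starter C1q, and Podxl, a sialomucin of vessels (0.153). Itgax, with its few counts, was less closely matched, by Gfap (0.563), Fcgr2b (0.716), an inhibitory receptor for immunoglobulin, and Ly86 (0.775). The distance mostly ranks genes by the size of their difference between groups, as the 6 libraries form 2 groups.

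Genes next to the chromosome 7 pair were examined because Itgam and Itgax are neighbours. Among the protein-coding genes within 100000 bases of Itgam or Itgax, Trim72, Cox6a2, 9130023H24Rik, Armc5 and Tgfb1i1 were tested and did not pass, with log2 fold changes between -0.30 and 0.58. Pycard, an inflammasome adaptor of myeloid cells 68772 bases from Itgam, rose from 2.25 to 5.67 CPM on average, by 1.31 ± 0.22 log2 units (SE; adjusted p of 0.00596 by edgeR). Itgad, a related leukocyte alpha subunit that starts 3718 bases after Itgax, had 2 to 6 counts in WT libraries and 1 to 3 in GFAP-IL6 libraries, too few to test. The rise was thus not shared by every gene of this stretch. Itgam, Itgax, Itgad and Itgal are related in sequence, and the effect on these counts of reads that fit several of them was not tested. Spi1, chosen after its values were seen, rose with a log2 fold change of 1.54 ± 0.20 (SE) and an adjusted p of 0.000908 by edgeR.

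The remaining integrin genes served as a comparison. Of 17 other subunits and the integrin-like Itgbl1, 12 genes were tested, and 0 rose or fell at an adjusted p under 0.05 by edgeR, while 4 higher (Itga5, Itga8, Itga10 and Itgb3) and 1 lower (Itgbl1) had an unadjusted p under 0.05. That level was reached by 11.1% of all genes tested in the higher and 9.37% in the lower direction. With DESeq2 and limma-voom the count of higher genes was also 0, and without the low-count filter it was 1, Itga10, named here after its values were seen along with the genes just listed. The estimates were above 0 in 10 of the 12, and in 7573 of the 15341 genes tested. The median log2 fold change of the 12 was 0.43, against -0.0038 over all genes tested. The 3 most abundant were Itga3 (17.7 ± 3.69 CPM in WT and 16.3 ± 1.86 in GFAP-IL6), Itgbl1 (17.5 ± 1.9 and 14.5 ± 1.08) and Itga7 (12.9 ± 1.99 and 16.07 ± 2.29; SD, n = 3 each). Itgae, Itgb7, Itgb2l and Itgad, which lymphocytes or myeloid cells use, reached no more than 14 counts in a library and were not tested, nor were Itga2 and Itgb6.

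**Figure D4:**
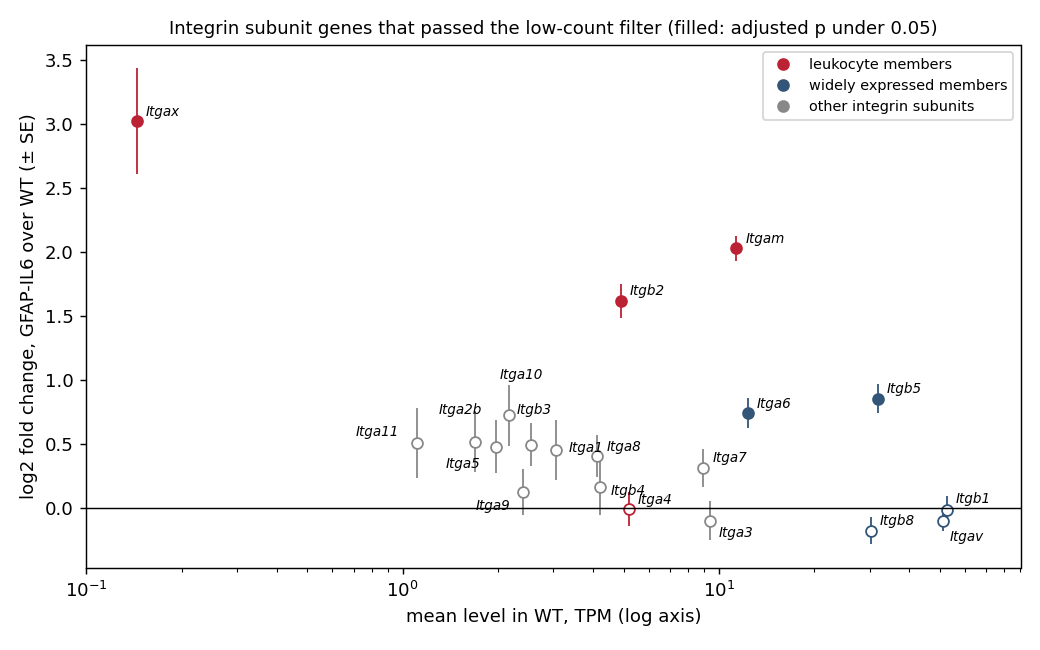
Log2 fold change of GFAP-IL6 over WT by edgeR with SE (vertical axis) against the mean WT level in TPM (horizontal log axis) for the integrin subunit genes that passed the low-count filter, filled at an adjusted p under 0.05. Leukocyte members are red, widely expressed members blue and other subunits grey, with Itgam at 2.03, Itgb2 at 1.62 and the other subunits below 1, while Itgax, at 3.02, passed the filter through its GFAP-IL6 libraries alone.

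Genes that switch integrins on or tie them to the actin skeleton were measured in a list of 22, of which 21 were tested. Beside 2.65% of all genes tested, 3 of the 21 rose. These were Tln1, which encodes the talin that activates beta subunits (53.1 ± 4.88 CPM in WT and 77.2 ± 10.9 in GFAP-IL6, log2 fold change 0.54), Fermt3, the kindlin of blood cells (6.11 ± 0.92 and 10.8 ± 0.933, 0.81), and Apbb1ip, which links Rap1 to talin (3.97 ± 0.867 and 8.07 ± 0.566, 1.01; SD, n = 3 each). Their adjusted p by edgeR was 0.0157, 0.0146 and 0.0114. The median of the list was 0.07, and 0 genes fell. None of the 3 passed without GFAP-IL6 replicate 3 (0.119, 0.114 and 0.0556 by edgeR), and single ones failed without GFAP-IL6 replicate 1 (Tln1 at 0.0551, Apbb1ip at 0.0716) or replicate 2 (Fermt3 at 0.065).

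Ligands of the leukocyte integrins numbered 14, of which 10 were tested and 4 rose, or 3 of 9 without C3, whose direction the low-count filter fixed. The share that rose over all genes tested was 2.65%. Icam1, the endothelial ligand of CD11a and CD11b with CD18, rose from 2.65 ± 0.182 to 6.26 ± 1.11 CPM (SD, n = 3 each), a log2 fold change of 1.24 with an adjusted p of 0.00442 by edgeR. Fn1, which encodes fibronectin, a ligand of the Itga4 product, rose from 40.02 ± 2.83 to 81.5 ± 10.5 CPM, a log2 fold change of 1.03 with an adjusted p of 8.71e-05 by edgeR. F11r, a junction molecule bound by CD11a with CD18, rose by 0.90 log2 units (adjusted p of 0.0108 by edgeR, 0.0987 without GFAP-IL6 replicate 3). C3, whose cleavage product is bound by CD11b and CD11c with CD18, was counted 0, 5 and 2 times in WT and 50, 25 and 71 times in GFAP-IL6. C3 passed the filter through its GFAP-IL6 libraries alone, with a log2 fold change of 4.97 ± 0.53 (SE) and an adjusted p of 0.000169 by edgeR. The list had a median log2 fold change of 0.23 over the 10 genes tested and 0.16 without C3.

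The list of ligands of receptors with the products of Itgav and Itga6 held 18 genes. Nrros and Lrrc32 were counted in it, though their products are not themselves such ligands. The list left out Fn1, which rose and is given above with the ligands of leukocyte integrins. All 18 were tested and, beside 2.65% of all genes tested, 1 rose. It was Lamb2, a laminin chain, from 23.9 ± 1.82 to 36.004 ± 4.03 CPM (SD, n = 3 each), a log2 fold change of 0.59 with an adjusted p of 0.00872 by edgeR, which was 0.0544 without GFAP-IL6 replicate 2 and 0.0791 without GFAP-IL6 replicate 3. The median of the list was 0.06, near that of all genes tested.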

How the data were processed

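TruSeq mRNA libraries of frontal cortex from 3 WT and 3 GFAP-IL6 mice were used, grouped by their titles. The authors aligned reads to mm10 with STAR 2.4 and summed them over GENCODE vM6 genes with featureCounts. The deposited counts were whole numbers and not normalized, and the deposited gene length served for TPM. The build named in the submitters' processing notes was that of human, which the mouse gene identifiers contradict.

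Counts were tested with edgeR 4.0.16 (quasi-likelihood, TMM, filterByExpr, Benjamini-Hochberg over 15341 genes) in R 4.3.3. SE was derived from the F statistic. DESeq2 1.42.0 and limma-voom (3.58.1), RLE scaling, no filter, a replicate block and leaving out each library were the alternatives. Ratios were tested by exact two-sided permutation (scipy 1.17.1). A floor of 3 counts corresponds to 0.178 to 0.397 CPM and covers counting error only, as reads carried no molecular identifiers. The chi-square per degree of freedom between libraries was 2.24 to 20.3 over 15 pairs, so none was a duplicate. The fits were tested on simulated data. Genes named outside the members are those of each list past the threshold, or else the 3 most abundant, with markers, pattern neighbours and genomic neighbours, and those said to be chosen later. The members and lists were chosen with earlier results of these data known. A microglia marker of the planned list, left out of its counts, sums and ratios, and a chromosome 7 neighbour are not reported here.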

Additional observations from a re-analysis of the deposited data

How the results depend on the processing

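Itgam, Itgax, Itgb2, Itgb5 and Itga6 were called higher in each alternative fit, 12 fits with the main one, and 0 members were called lower. Itgax passes the low-count filter through its GFAP-IL6 libraries alone, so its calls in the fits that used the filter add no support. When 1 library was left out, the log2 fold change was 1.96 to 2.09 for Itgam, 2.75 to 3.31 for Itgax, 1.57 to 1.65 for Itgb2, 0.73 to 0.92 for Itgb5 and 0.65 to 0.81 for Itga6. It was -0.10 to 0.14 for Itga4, -0.13 to 0.07 for Itgb1, -0.15 to -0.06 for Itgav and -0.29 to -0.09 for Itgb8. The sign of Itga4 was positive with limma-voom (0.0172), without WT replicate 1 (0.14) and without GFAP-IL6 replicate 2 (0.03), and that of Itgb1 without WT replicate 2 (0.04), GFAP-IL6 replicate 1 (0.00046) or GFAP-IL6 replicate 2 (0.0733). Itgal was tested in 6 of the fits, with log2 fold changes of 0.40 to 0.70, none past the threshold, and its CPM difference of 0.278 was 0.216 to 0.36 when 1 library was left out.

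All genes past an adjusted p of 0.05 numbered 439, with 1154 without the low-count filter, 750 with the replicate block and 187 to 1061 when 1 library was left out (1061 without WT replicate 1, 282 without GFAP-IL6 replicate 2, 187 without GFAP-IL6 replicate 3). DEGs numbered 211, and 129 to 239 when 1 library was left out, lowest without GFAP-IL6 replicate 3. The cause was not tested. Activation and adaptor genes called higher numbered 5 without the filter and 0 to 4 when 1 library was left out (1 without GFAP-IL6 replicate 1, 0 without GFAP-IL6 replicate 3), the ligands of Itgav and Itga6 receptors 0 to 1 (0 without GFAP-IL6 replicate 2 or 3), the ligands of leukocyte integrins 3 to 4, and the other subunits 1 without the filter and 0 to 1 (1 without GFAP-IL6 replicate 1).

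Group differences of the log2 ratios moved by less than 1 SD without division by length, with a pseudocount and when libraries were left out, where those of Itga4 to Itgb1, Itgb8 to Itgav and Itgal to microglia markers took either sign. The exception was Itgam to microglia markers, at 1.40 in place of 1.47 without division by length. Deviations from the group means of libraries with the same replicate number correlated at 0.123, 0.0192 and 0.0505. GFAP-IL6 replicate 3 correlated slightly better with WT replicate 2, at 0.0514. The main fit used the group alone, and these values do not settle whether libraries of the same number share a factor. The replicate block changed no call of a member. At 6 to 12 counts per library, Itgal could not be tested by the main fit, and 1 to 5 counts per WT library stand behind the interval of Itgax.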
